A study of Rattus norvegicus with 119 samples.

Results

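Gfra3 and Ret encode parts of the receptor for glial cell line-derived neurotrophic factor (GDNF) family ligands, and their transcripts were followed here through every assay of ventral mesenchymal pad (VMP) and adjacent urethra of newborn female Wistar rats. The VMP is a mesenchyme of the female urogenital sinus, and the adjacent tissue (SU) holds urethral epithelium together with smooth muscle and the mesenchyme around the urethra. Both were microdissected from pooled tissues on the day of birth. There was no treatment, genotype or male group. Tag-seq, which counts a short tag next to an NlaIII cut site of each transcript, was made from whole microdissected tissue, with 1 library per tissue. RNA-seq was made from collagenase-dispersed cells passed through a strainer, a step that leaves intact epithelium behind, also with 1 library per tissue. Full-length single-cell libraries came from 49 cells labelled VMP and 66 labelled SU. The 2 genes were chosen, out of 32662 in the count tables, because both were higher in VMP, so the VMP to SU differences are descriptions and were given no test.

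The GDNF family comprises secreted dimers that act on neurons, enteric nerve precursors and the developing urinary tract. A ligand binds a GFRA co-receptor, which is held in the outer membrane by a lipid anchor and has no intracellular domain, and the ligand and co-receptor then engage Ret, a transmembrane tyrosine kinase that carries the signal into the cell. Gfra3 is the co-receptor preferred by artemin. A cell that holds both products can respond by itself, and for this reason the presence of both transcripts in the same cells was examined.

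Gfra3 (ENSRNOG00000020309) is a protein-coding gene on chromosome 18 at 27491845-27520295 (Rnor_6.0), with an annotated transcript length of 2222 bases. Ret (ENSRNOG00000014751) is a protein-coding gene on chromosome 4 at 150202058-150244372 (Rnor_6.0), with a transcript length of 5586 bases. The 250 bases upstream of each RefSeq gene start in a later build, GRCr8, are shown because both transcripts were higher in the same tissue. They lie at chr18:26600226-26600475 and chr4:153040557-153040806, are written 5′ to 3′ on the minus strand, and carry GC boxes (GGGCGG, or CCGCCC on the other strand) in capitals.
Gfra3: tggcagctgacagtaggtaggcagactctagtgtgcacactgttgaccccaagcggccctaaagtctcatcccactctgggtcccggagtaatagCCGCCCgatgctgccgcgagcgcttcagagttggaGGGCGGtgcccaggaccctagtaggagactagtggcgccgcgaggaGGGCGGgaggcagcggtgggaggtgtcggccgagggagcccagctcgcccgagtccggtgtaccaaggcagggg
Ret: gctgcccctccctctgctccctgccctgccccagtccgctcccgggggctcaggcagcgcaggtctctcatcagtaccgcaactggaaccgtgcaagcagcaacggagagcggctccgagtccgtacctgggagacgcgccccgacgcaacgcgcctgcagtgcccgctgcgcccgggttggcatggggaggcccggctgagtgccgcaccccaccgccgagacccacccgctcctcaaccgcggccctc

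The Gfra3 window held 3 GC boxes and the Ret window 0, while 30.5% of 33469 rat promoter windows of this length held at least 1. Neither window held TATAAA, found in 12.9% of all windows on either strand, or CCAAT, found in 34.02%. Both windows were rich in G and C, at 66% for Gfra3 and 72.8% for Ret against a median of 51.2% over all windows. A letter match is a description and is not a measured binding site.

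Total counts on genes were 7870450 in VMP and 8215177 in SU for Tag-seq, and 4397699 and 7007767 for RNA-seq. Single cells held 248738 to 1200734 counts in VMP (median 614376) and 199849 to 1488320 in SU (median 631066), with a median of 5545 and 6183 genes detected. No 2 cell columns were identical, and 33 cell numbers occur under both tissue labels. The protocol states that 52 VMP and 63 SU cells were sequenced, whereas the sample titles give 49 and 66, and the titles were followed. As there was 1 library or 1 pool of cells per tissue, intervals are 95% intervals for counting error only, and they do not contain the difference between animals or dissections. In tissue pools, fewer cells with a transcript and less transcript per cell cannot be told apart.

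In whole tissue, Gfra3 was an abundant transcript of the VMP and was also present in SU. Tag-seq gave 2069 Gfra3 counts in VMP, or 263 CPM (counts for every 1000000 counts on genes, interval 252 to 274), and 447 counts in SU, or 54.4 CPM (49.5 to 59.7). The ratio after TMM scaling was 4.47-fold, a log2 ratio of 2.16 (2.01 to 2.31), which ranked 305 among 12191 transcripts tested. In dispersed cells the separation was wider. RNA-seq gave 920 Gfra3 counts in VMP, or 209 CPM (196 to 223), and 11 counts in SU, or 1.57 CPM (0.784 to 2.81). The log2 ratio was 6.79 (6.004 to 7.86), ranking 52 among 17527.

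Ret was the lower of the pair by both Tag-seq and RNA-seq, and its counts separated the tissues in the same direction. Tag-seq gave 109 Ret counts in VMP, or 13.8 CPM (11.4 to 16.7), and 30 in SU, or 3.65 CPM (2.46 to 5.21). The log2 ratio was 1.79 (1.22 to 2.45), rank 572. RNA-seq gave 357 counts in VMP, or 81.2 CPM (72.98 to 90.1), and 0 in SU, where the depth allows up to 0.428 CPM by a floor of 3 counts. Against that floor Ret was at least 164-fold higher in VMP by RNA-seq, and the exact interval of the log2 ratio began at 7.05. With the SU count of 0 set to 0.5 the ratio ranked 2 among 17527, a rank that depends on that setting. Ret was seen in SU by Tag-seq and not by RNA-seq, and Gfra3 in SU was 54.4 CPM by Tag-seq against 1.57 CPM by RNA-seq. Tissue state, chemistry and pool changed together between the assays and cannot be told apart.

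**Figure D1:**
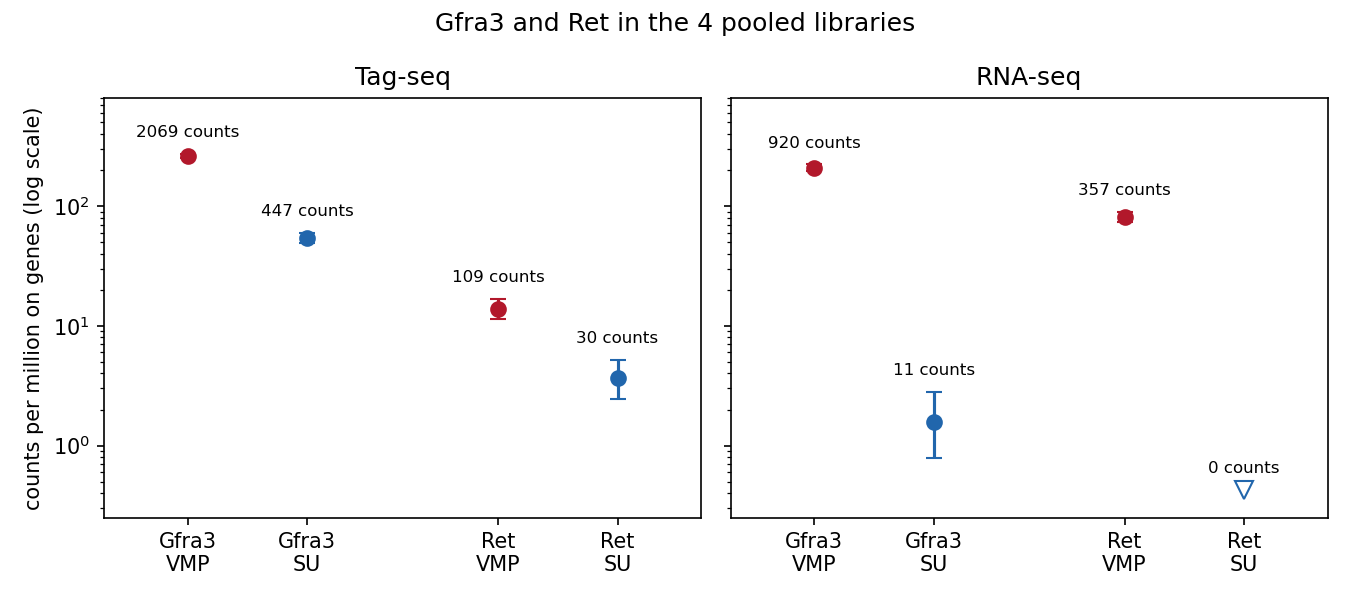
Levels of Gfra3 and Ret in the Tag-seq and RNA-seq libraries, in CPM on a log axis, with VMP in red and SU in blue. Bars are 95% Poisson intervals, the open triangle marks the level that a count of 0 allows (0.428 CPM), and the raw count stands above each point. VMP lies above SU for both genes in both assays.

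Transcripts were called higher in a tissue when the NOISeq probability q was at least 0.9 and the log2 ratio at least 1.5. This probability compares the observed difference with that between simulated libraries of the same tissue, and it is not a p-value. Each gene passed both limits in VMP by each assay, with q of 0.977 (Tag-seq) and 1 (RNA-seq) for Gfra3 and 0.949 (Tag-seq) and above 0.999 (RNA-seq) for Ret. Of all tested transcripts, 4.9% (597) were called higher in VMP by Tag-seq and 8.76% (1535) by RNA-seq, and 131 of the 11273 tested in both assays were called in both. The genes were chosen on these same contrasts, so nothing is read from their calls. The Tag-seq call of Ret was lost, at q of 0.789, when the simulated libraries were put on the depth of the real ones, whereas the other 3 calls were kept. VMP calls made up 46.9% of all RNA-seq calls, and 56.9% when libraries were scaled by total count alone.

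**Figure D2:**
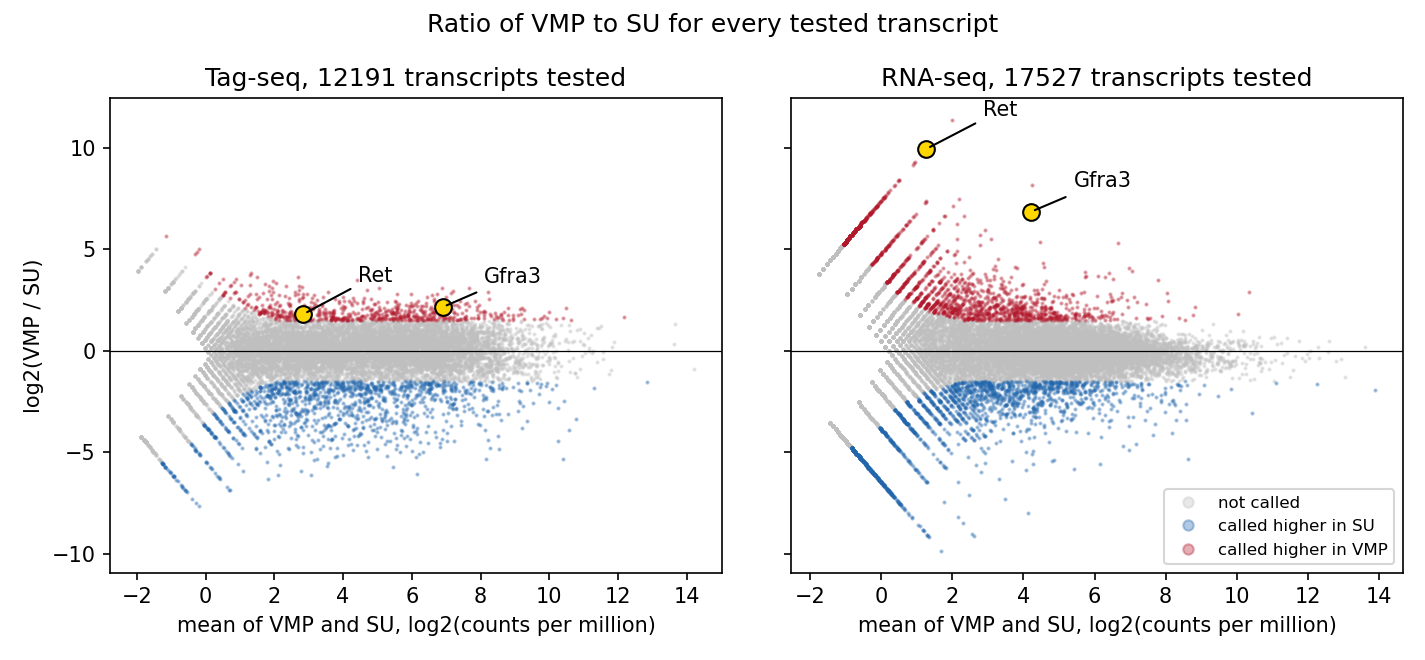
Each point is a tested transcript, with the mean log2 CPM of VMP and SU on the x axis and the log2 ratio of VMP to SU on the y axis. Gfra3 and Ret are marked in yellow, and red and blue points were called higher in VMP and SU. For the x axis 0.5 was added to each count, and for the y axis only counts of 0 were set to 0.5. The RNA-seq height of Ret (0 counts in SU) depends on that setting. By RNA-seq both genes stand near the top of the plot, and by Tag-seq they stand nearer to the limit of 1.5.

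Per length, Gfra3 exceeded Ret in the VMP. RNA-seq gave 94.1 CPM per kilobase for Gfra3 (88.2 to 100.4) and 14.5 for Ret (13.1 to 16.1), a ratio of 6.48 (5.73 to 7.34). Tag-seq counts 1 site per transcript and needs no length, and there the ratio of Gfra3 to Ret was 19.0 in VMP (15.7 to 23.2) and 14.9 in SU (10.3 to 22.3), intervals that overlap. The order of the genes was the same by Tag-seq and RNA-seq, while the size of the ratio differed. Summed over the VMP single cells, CPM without regard to length was higher for Ret, at 61.9 against 45.2 for Gfra3.

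In single cells, both transcripts were found in part of the VMP cells and in very few SU cells. Gfra3 was found in 15 of 49 VMP cells, 30.6% (exact interval 18.3 to 45.4), and in 2 of 66 SU cells, 3.03% (0.369 to 10.5). Ret was found in 29 of 49 VMP cells, 59.2% (44.2 to 73.003), and in 2 of 66 SU cells. Of 7122 genes found in at least 15 VMP cells, 0.407% (29) were found in no more than 2 SU cells, a rule that both genes meet and that belongs to the contrast on which they were chosen.

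Levels among the positive VMP cells ranged widely. The 15 Gfra3 cells held 1 to 537 counts with a median of 23, and the highest, cell 44, reached 622 CPM and held 39.9% of all Gfra3 counts in the VMP cells. The 29 Ret cells held 1 to 701 counts with a median of 6, and the highest, cell 43, reached 783 CPM and held 37.97%. The top 3 cells carried 68.6% of Gfra3 and 69.3% of Ret counts. A few cells thus set the summed level of each gene, and the top cells were not the same for the pair.

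Summed over cells, Gfra3 was 1346 counts in VMP (45.2 CPM) and 2 in SU (0.0452 CPM), a log2 ratio of 9.64 (8.11 to 13.01). Ret was 1846 counts in VMP (61.9 CPM) and 50 in SU (1.131 CPM), a log2 ratio of 5.76 (5.37 to 6.21). Of the 50 SU counts of Ret, 49 were in cell 23 and 1 in cell 75, and both SU counts of Gfra3 were single reads, in cells 95 and 96. Without the highest cell of each tissue the log2 ratio of Ret rose to 10.17, since 1 count was left in SU. No SU cell held both transcripts, and 0 of 66 cells allows a share of up to 4.55% by a floor of 3 cells.

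The share of VMP cells with Ret depended on the number of the cell. Sample titles number the cells within 1 to 96, and the split at 48 was chosen after the values were seen. Among the 24 VMP cells numbered 1 to 48, Ret was found in 7 (29.2%, 12.6 to 51.1), at 14 to 701 counts with a median of 141. Among the 25 numbered 49 to 96, it was found in 22 (88%, 68.8 to 97.5), at 1 to 147 counts with a median of 4. All 19 VMP cells with 1 to 9 Ret counts were numbered 49 to 96, and in the other numbers every VMP cell had either 0 or at least 14.

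Gfra3 was found in like shares on both sides of that split, in 7 of 24 VMP cells (29.2%, 12.6 to 51.1) and in 8 of 25 (32%, 14.9 to 53.5). Cells numbered 1 to 48 held 1 to 537 Gfra3 counts with a median of 2, and those numbered 49 to 96 held 9 to 201 with a median of 41. Depth did not separate the sides, with median counts of 621632 and 597648 per VMP cell. Of 8879 genes found in at least 10 VMP cells, 3.84% (341) differed between the sides by at least 50 percentage points in the share of cells with a count, and Ret, at 58.8 points, was among 163 genes with so large a difference. The labels give no batch, capture order or lane for the numbers. The headers of the counts also give each VMP cell a code of a letter and a number, and no code number occurs on both sides of the split. What the code stands for is not stated. The part of the cell numbers and codes in the Ret share was not tested.

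In SU, Ret was found in 1 of 32 cells numbered 1 to 48 and in 1 of 34 numbered 49 to 96. Low counts like those in VMP cells of the higher numbers were rare in SU cells of the same numbers. SU cells held only 50 Ret counts, 49 of them in cell 23. With so little Ret in SU, this comparison cannot serve as a control for the cell numbers, whose part was not tested. Within each set of numbers VMP stayed above SU. The log2 ratio over summed counts was 11.11 (cells 1 to 48) and 8.46 (cells 49 to 96) for Gfra3, and 5.49 and 8.22 for Ret.

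**Figure D3:**
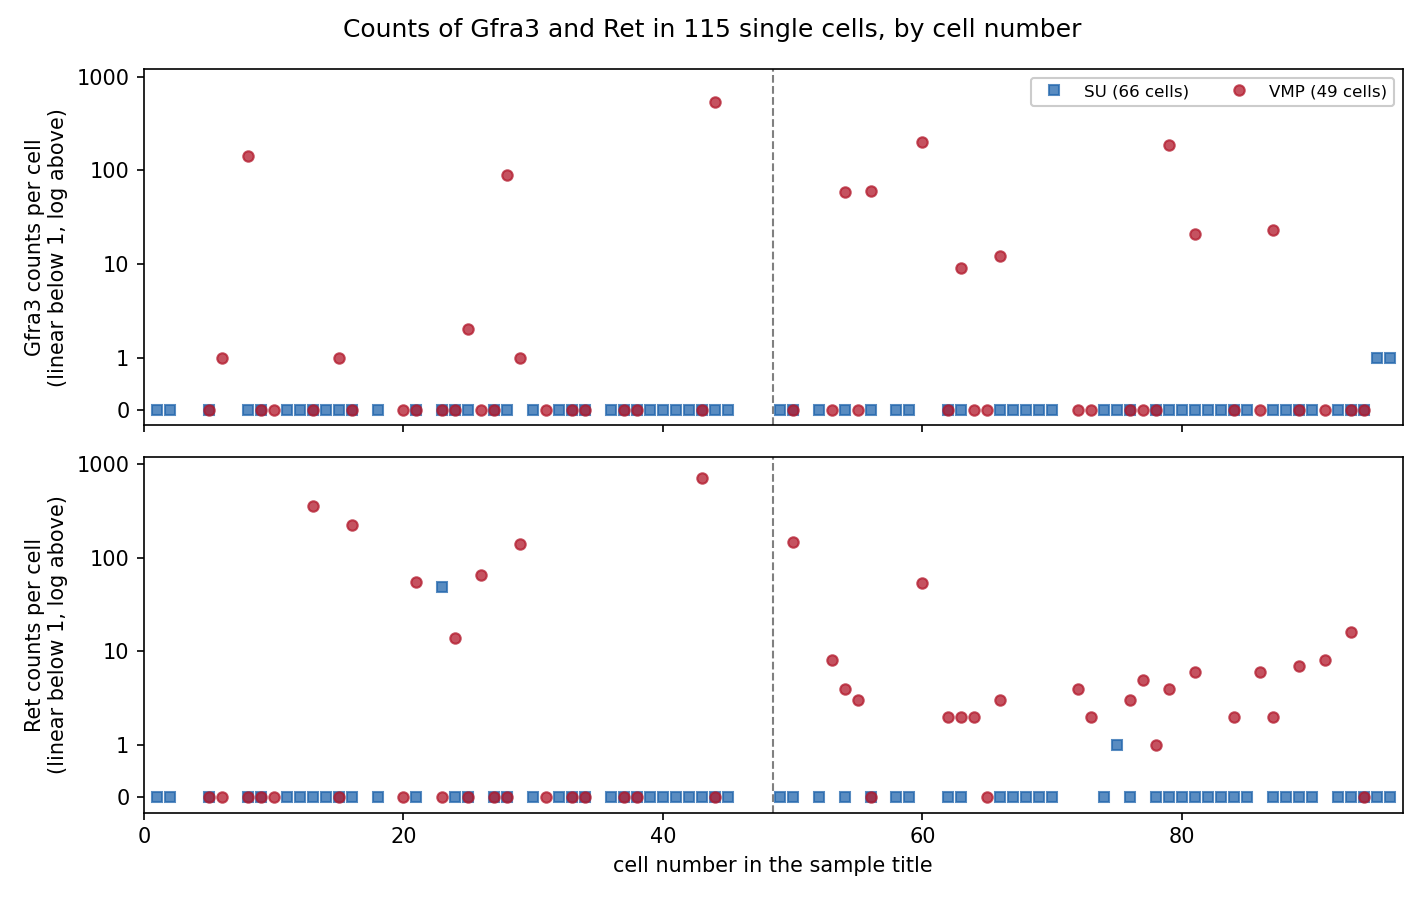
Counts of Gfra3 (upper) and Ret (lower) in each of 115 cells against the cell number in the sample title, VMP as red circles and SU as blue squares, on an axis that is linear below 1 and logarithmic above. The dashed line lies between cells 48 and 49. To its right nearly all VMP cells (22 of 25) have Ret, most at 1 to 9 counts, and to its left 7 of 24 do, each with at least 14.

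With 1 count taken as presence, 8 of 49 VMP cells held both transcripts (16.3%, 7.32 to 29.7), 7 held Gfra3 without Ret, 21 held Ret without Gfra3 and 13 held neither. Ret was found in 8 of the 15 Gfra3 cells (53.3%, 26.6 to 78.7) and in 21 of the 34 other cells (61.8%, 43.6 to 77.8). The intervals overlap over most of their length. The share of cells with the kinase was no higher among cells with the co-receptor than among the rest, and a difference of moderate size in either direction lies within these intervals. These shares pool 2 sets of cell numbers that differ in Ret. In cells numbered 1 to 48, Ret was in 1 of 7 Gfra3 cells, against 7 of all 24. In cells numbered 49 to 96 it was in 7 of 8, against 22 of all 25.

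In 7 of the 8 cells with both, 1 of the transcripts was low. Cell 60 held 201 Gfra3 and 54 Ret counts and was the single cell with at least 10 of each. This cell also had the most genes detected of all VMP cells, 6962 against a median of 5545, at 534683 counts on genes. Doublets were not called, and whether cell 60 was a single cell was not tested. Cells 79 and 54 held 186 and 59 Gfra3 counts beside 4 Ret counts each. Cells 81, 66, 87 and 63 held 21, 12, 23 and 9 Gfra3 counts beside 6, 3, 2 and 2 Ret counts. Cell 29 had the opposite pattern, with 1 Gfra3 and 141 Ret counts.

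Of these 8 cells, 7 were numbered 49 to 96, where low Ret counts were frequent, and 1 was numbered 1 to 48. At 5 counts or more of each gene, 2 cells held both, 9 held Gfra3 alone and 14 held Ret alone. At 10 CPM or more, 1 cell held both, 10 Gfra3 alone and 13 Ret alone. At 10 counts or more, a limit chosen after the values were seen, each gene was found in 10 of 49 cells (20.4%, 10.2 to 34.3). Gfra3 then reached the limit in 1 of 10 Ret cells (10%, 0.253 to 44.5) and in 9 of 39 others (23.1%, 11.1 to 39.3), intervals that overlap.

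Among the cells with the highest Ret counts the transcripts were apart, and among those with the highest Gfra3 counts this varied. Ret counts of 701, 356, 223 and 147 were in cells 43, 13, 16 and 50, each with 0 Gfra3 counts. Gfra3 counts of 537, 143 and 90 were in cells 44, 8 and 28, each with 0 Ret counts. Cells 60 and 79, which rank between cells 44 and 8, held 201 and 186 Gfra3 counts beside 54 and 4 Ret counts. Over the 49 VMP cells, CPM of the genes had Pearson's r of -0.094 and Spearman's rho of -0.14, a weak relation in sparse counts of 1 pool. Taking all cells to the depth of the shallowest (199849 counts), the expected shares were 26.03% for Gfra3 and 48.8% for Ret and the expected number with both was 5.57, against 30.6%, 59.2% and 8 without it.

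**Figure D4:**
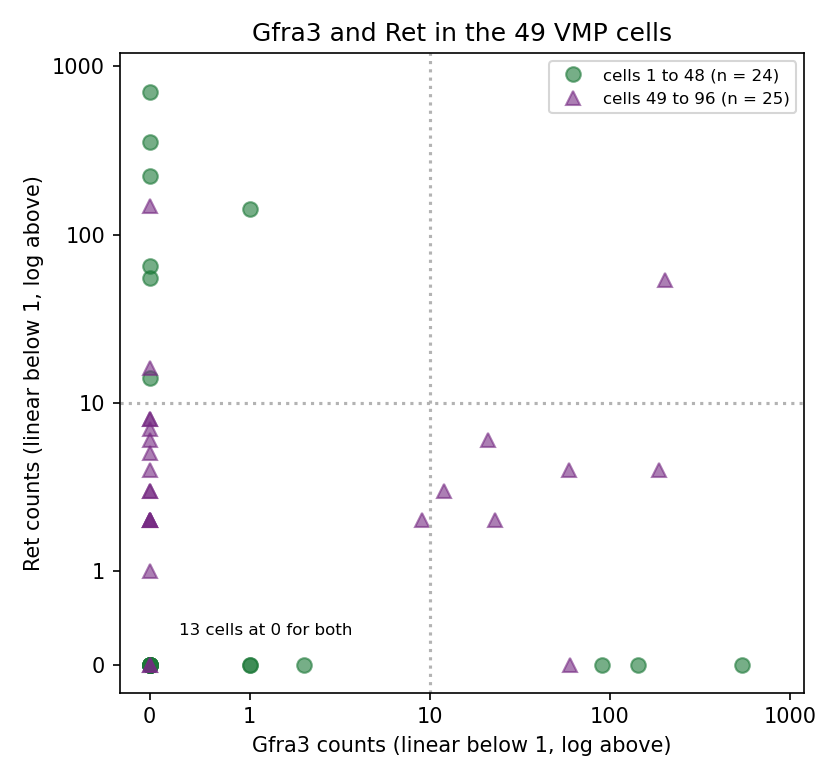
Ret counts against Gfra3 counts in the 49 VMP cells, green circles for cells numbered 1 to 48 and purple triangles for 49 to 96, both axes linear below 1 and logarithmic above, with dotted lines at 10 counts. Most positive cells lie along one axis or hold few Ret counts, and 1 cell lies above both dotted lines.

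The VMP cells with either transcript carried mesenchymal markers, as did the other VMP cells. The collagens Col1a1 and Col3a1 and the proteoglycan Dcn were found in all 49 VMP cells, the growth factor receptor Pdgfra in 48, and the summed level of the 9 matched mesenchymal markers (of 12 listed) was 5024 to 13611 CPM in cells with at least 10 Ret counts, 5254 to 22011 in those with at least 10 Gfra3 counts and 3774 to 26378 in the other 30. Col1a1, Col3a1 and Dcn held most of the counts in these sums. The other matched markers were Lum, found in 48 VMP cells, Pdgfrb in 34, Prrx1 in 32, Twist2 in 26 and Twist1 in 13. The match of 75% was below the 80% set as needed for a list, so these sums are shown as levels. The epithelial cadherin Cdh1 was at 0 in all 49 VMP cells. The 13 matched epithelial markers (of 14) summed to 3.14 CPM or less in cells with at least 10 counts of either gene, and to at most 68.9 CPM among all VMP cells, in cell 86 with 6 Ret counts. The keratin Krt8 was found in 10 VMP cells at no more than 2 counts. Of these cells 9 held Ret, and 8 were numbered 49 to 96, where most VMP cells held Ret. Krt8 was found in 1 of the 10 cells with at least 10 Ret counts. Epcam, an epithelial adhesion molecule, was found in 5 VMP cells at 1 count.

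Endothelial markers were present at uneven levels. The 4 matched of 10 listed summed to 4.34 to 3222 CPM in cells with at least 10 Ret counts (median 203), 8.13 to 2201 in those with at least 10 Gfra3 counts (median 41.99) and 1.07 to 2342 in the others (median 36.2). The ranges overlap. Kdr, a receptor for vascular endothelial growth factor, was found in all 49 VMP cells. Over these cells it held 8046 counts, against 1486 for Emcn, 1207 for Cdh5 and 259 for Tie1, so Kdr weighs most in the sums. With 4 of 10 genes matched, the sums are shown as levels and support no statement on cell type. Cdh5, the endothelial cadherin, was found in 31 of 49 VMP cells with a median of 1 count in these, and in 9 of the 10 cells with at least 10 Ret counts, 2 of which held at least 10 Cdh5 counts. Tie1, an endothelial receptor, was found in 3 of those 10 cells and in 16 of all 49 VMP cells. Emcn, an endothelial sialomucin, was found in 5 of those 10 and in 15 of all 49. The highest sum was in cell 13, which had 356 Ret counts. The part of these markers in the Ret level was not tested.

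Sums of the 3 matched neuron markers (of 13) reached 288 CPM in cells with at least 10 Ret counts and 384 CPM in those with at least 10 Gfra3 counts, with 348 CPM in the others. A list with so few matched members is shown as levels and supports no statement on cell type. Skeletal muscle markers (10 of 10 matched) reached 1043, 1312 and 1163 CPM in the same classes.

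Among other genes of the pathway, 9 of 45 listed could be matched from gene identifier to symbol, and none of the 5 ligands was among them. The symbols came from genes that the study had called on these libraries, so the counts are not independent evidence of a direction. By Tag-seq 8 were tested, of which 1 was called higher in VMP, 3 higher in SU and 4 in neither, with a median log2 ratio of -1.44. By RNA-seq 1 was called higher in VMP, 5 higher in SU and 3 in neither, with a median of -2.26. The medians over all tested transcripts were 0.0071 and 0.032, and 10.2% and 9.93% of all were called higher in SU.

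Gfra2, the co-receptor preferred by neurturin, differed from Gfra3 in its distribution. By Tag-seq it was 65 counts in VMP and 15 in SU, a log2 ratio of 2.03 (1.24 to 2.98), and was called higher in VMP. By RNA-seq it was 1379 and 991 counts, a log2 ratio of 0.94 (0.82 to 1.06), and was not called. In single cells the direction was the opposite, with Gfra2 in 35 of 49 VMP cells at 16.9 CPM over the sum and in 59 of 66 SU cells at 71.8 CPM. VMP cells held up to 156 Gfra2 counts with a median of 1, and SU cells up to 706 with a median of 3. At least 10 counts were in 6 of 49 VMP and 17 of 66 SU cells, so a minority of cells weighs heavily in the summed levels.

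With 1 count taken as presence, Gfra2 was found in more VMP cells than Gfra3, 35 against 15 of 49. At 10 counts or more it was found in fewer, 6 against 10. At 1 count, Gfra2 was found in 21 of 29 Ret cells (72.4%, 52.8 to 87.3) and in 14 of 20 VMP cells without Ret (70%, 45.7 to 88.1). It was also found in 11 of 15 Gfra3 cells. At 10 counts or more, Gfra2 was found in 2 of the 10 cells with at least 10 Ret counts, cells 26 and 24, with 139 and 26 Gfra2 counts. The share of cells with Gfra2 was thus alike with and without Ret, within wide intervals.

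The 4 matched adaptors and effectors of Ret (of 18 listed) were lower in VMP where they were called, and their relation to Ret was not tested. Dok4 and Dok5, docking proteins of receptor tyrosine kinases, were called higher in SU by RNA-seq, Dok4 at a log2 ratio of -2.10 (-2.87 to -1.46) and Dok5 at 0 counts in VMP against 91 in SU, at least 22.0-fold lower in VMP. Src, a cytoplasmic tyrosine kinase, was -1.31 by Tag-seq, not called, and -2.26 by RNA-seq, called. Grb7, an adaptor, was called by Tag-seq at -3.08 (-4.43 to -2.10) and was not called by RNA-seq at 2 against 18 counts.

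Etv5, an ETS-family transcription factor that Ret signalling is known to induce in the ureteric bud, was called higher in SU in both assays, with 20 against 66 counts by Tag-seq (log2 ratio -1.75) and 28 against 232 by RNA-seq (-2.56). It was found in 5 VMP and 5 SU cells, and in 3 of the 29 VMP cells with Ret. Cxcr4, a chemokine receptor listed with it as a response gene, was called by Tag-seq at -1.88 and not called by RNA-seq at 4 against 17 counts. Both matched response genes (of 10 listed) were lower in VMP where they were called. As their symbols came from genes the study had called, this direction is a description, and its relation to Ret was not tested.

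Of the upstream regulators, Gata3, a zinc finger transcription factor required for Ret in the nephric duct, went in opposite directions. By Tag-seq it was 858 counts in VMP and 2294 in SU, a log2 ratio of -1.47 that was not called, and by RNA-seq 1077 and 212, a log2 ratio of 2.81 that was called higher in VMP. It was found in 39 of 49 VMP cells and 17 of 66 SU cells, and in 26 of 29 VMP cells with Ret and 13 of 20 without. Within the VMP cells numbered 1 to 48 it was in 6 of 7 with Ret and 10 of 17 without. Pax3, a paired-box transcription factor, was at 0 in both Tag-seq libraries and was called higher in SU by RNA-seq at 6 against 55 counts.

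The named genes whose levels followed each receptor most closely over the 49 VMP cells were ranked by Spearman's rho among 1288 genes that had a symbol and a count in at least 10 VMP cells. For Gfra3 these were the RNA-binding protein Rbm41 (0.46), the secreted C1qtnf6 (0.43), the nucleolar Nol6 (0.41), the actin-binding Coro1b (0.41) and the cation channel Trpc1 (0.39). For Ret they were Scaf8, which binds RNA polymerase II (0.49), the collagen Col26a1 (0.48), the endothelial lectin Clec14a (0.47), the transcription factor Ebf1 (0.39) and the actin-binding Coro6 (0.38). These are descriptions over cells of 1 pool that share depth and chip.

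The same rho values were also taken within each set of cell numbers, which adds no independent evidence because the genes were chosen over these same cells. For the Gfra3 list rho was 0.31 to 0.51 in cells 1 to 48 and 0.40 to 0.52 in cells 49 to 96, and for the Ret list 0.082 to 0.79 and 0.049 to 0.71. Col26a1 had rho with Ret of 0.79 in cells 1 to 48 and 0.049 in cells 49 to 96, and Coro6 had 0.082 and 0.71. Clec14a was found in 2 of 24 VMP cells numbered 1 to 48 and in 23 of 25 numbered 49 to 96, a difference in the direction of that of Ret, and its rho was 0.57 and 0.18 within them.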

How the data were processed

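Tag-seq, RNA-seq and single-cell libraries were deposited by the authors as raw counts per Ensembl gene on Rnor_6.0, unnormalised. Per the study's methods, tags were trimmed and aligned with Bowtie2, keeping unique matches, and single-cell reads were trimmed with Trimmomatic 0.33, aligned with TopHat and stripped of duplicates with Picard 1.128, so single-cell counts are reads and not molecules. Symbols, positions and lengths came from annotation columns of the study's supplementary table (2995 identifiers), whose fold changes and probabilities were not used. The 95 spike-in rows were kept out of totals.

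Genes, lists and tests were chosen with earlier results of these data known. Bulk ratios used edgeR 4.0.16 TMM factors, a pseudocount of 0.5, transcripts above 1 CPM in either library, and NOISeq-sim as reimplemented here (5 simulations for each tissue, 20% of the depth, variability 0.02), which was tested on simulated data. Intervals were exact (Poisson, Clopper-Pearson or conditional binomial, scipy 1.17.1). A fold against 0 counts used a floor of 3 counts per library. Ranks and calls used ratios in which only counts of 0 were replaced, by 0.5. The design has no replicate libraries, and no p-value was computed. Pathway genes were those matched by symbol, and likeness was ranked over the 5 best named genes per receptor. No single-cell column was left unused, doublets were not called, and 47 VMP and 64 SU cells passed a filter of 3 median absolute deviations on depth, genes and spike-in share, which was used as an alternative only.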

Additional observations from a re-analysis of the deposited data

How the results depend on the processing

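All 30 log2 ratios recomputed under other settings stayed above 0. They ranged over 2.15 to 2.27 for Gfra3 and 1.65 to 1.91 for Ret by Tag-seq, 6.32 to 6.99 and 6.64 to 10.15 by RNA-seq, and 8.16 to 11.11 and 5.49 to 10.17 in single cells. Of 89 recomputed values, 65 stayed within the counting interval or within 1.5 times the count. The RNA-seq ratio of Ret was 6.64 with a pseudocount of 5, as its SU count is 0. The single-cell ratio of 11.11 for Gfra3, in cells numbered 1 to 48, also rests on a SU count of 0. The single-cell ratio of Ret was 10.17 without the highest cell of each tissue and 8.22 in cells numbered 49 to 96. The share of VMP cells with Ret was 32.7% at 5 counts, 28.6% at 10 CPM, 20.4% at 10 counts, 29.2% in cells 1 to 48 and 88% in cells 49 to 96. The share of SU cells with Gfra3 was 0% at 5 counts, 10 CPM and 10 counts and in cells 1 to 48. VMP cells with both were 2 at 5 counts, 1 at 10 CPM, 1 at 10 counts and 1 in cells 1 to 48. The limit of 10 counts, the cell numbers and the full-depth simulation were chosen after seeing the data. Transcripts called higher in VMP by Tag-seq were 1094 without the log2 limit, 306 at q of 0.95 and 359 with simulated libraries at full depth, where SU calls were 755. By RNA-seq, VMP calls were 898 and SU calls 1133 at q of 0.95, and 457 and 722 at full depth. Apart from alternatives whose construction sets the value, the cause was not tested. Scaling by total count moved the median of all tested transcripts by 0.11 (Tag-seq) and 0.21 (RNA-seq) on the log2 scale, and no scaling moved the RNA-seq median by -0.46. No paired analysis was possible because each bulk assay has 1 library per tissue and cells with the same number in VMP and SU were not shown to belong together. For the same reason no library could be left out. Cells came from 1 pool per tissue, so shares carry no error between animals.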

Other observations

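The contrast between VMP cells numbered 1 to 48 and 49 to 96 was also seen in genes outside the receptor pathway, chosen here after their values were seen. The mesenchymal transcription factor Prrx1 was found in 8 of 24 and 24 of 25 cells, and the neuronal tubulin regulator Stmn2 in 0 of 24 and 15 of 25. Both differed by more than 50 percentage points. The endothelial receptor Tie1 was found in 4 of 24 and 12 of 25, and Emcn in 10 of 24 and 5 of 25, differences below that limit. The part of the cell numbers in these values was not tested.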
